A study of Mus musculus with 16 samples.

Results

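Excitation-contraction coupling is described here through 36 genes, chosen by gene symbol for the protein complexes that turn an electrical pulse at the muscle membrane into calcium release, out of the 48432 genes listed in the deposited table. The cells were of the C2C12 line, mouse myoblasts that form beating multinucleate myotubes in culture, at passage 4-8 and after 5 days of differentiation. Control myotubes were left without stimulation. EPS myotubes received electrical pulse stimulation at 1 Hz, with pulses of 6 ms (a duty cycle of 0.6%), a field of 2.75 V/mm and a polarity that was switched at 0.5 Hz. How long the pulses were applied is not stated in the labels. Each group had 4 libraries made from total cellular RNA, and the comparison asks how stimulation changed RNA levels. The cells are 1 line in culture with no nerve. Nothing in the labels says whether each library had its own culture, and a p-value here measures the spread between libraries, which may be technical.

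In skeletal muscle the action potential runs along the surface membrane and into its tubular inward folds, the T-tubules. There a voltage sensor, the L-type calcium channel, touches the ryanodine receptor of the sarcoplasmic reticulum, the calcium store, and the contact site is called the triad. Voltage opens the release channel through this contact, calcium binds the contractile filaments, and calcium pumps then refill the store, where binding proteins hold the ion. Store-operated entry lets calcium in from outside when the store empties, while sodium, chloride and potassium channels set how the membrane fires and repolarises. By these roles the genes were grouped into 5 of the voltage sensor, 8 of the release channel and junction, 3 of the T-tubule membrane, 10 of the calcium store and buffering, 3 of store-operated entry, and 7 membrane channels and pump subunits.

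Levels are in CPM, fragments per M (10 to the power of 6) fragments of a library after TMM scaling, which evens out differences in library composition. Control libraries 1 to 4 held 18.6, 0.354, 12.6 and 20.7 M fragments and EPS libraries 1 to 4 held 20.1, 14.7, 18.1 and 20.7 M. Control replicate 2 is thus far shallower than the other 7, and a count of 3 fragments, the limit that a count of 0 allows, is 8.52 CPM there against 0.138 to 0.241 CPM elsewhere (counting error only). Several results that rest on this library are given with and without it. Of 36 genes, 34 had enough counts to be tested. Sln, which encodes the calcium pump inhibitor sarcolipin, is listed at 0 in every library, and Cacna1h, a T-type calcium channel, had 10, 0, 2 and 6 fragments in control and 1, 1, 8 and 8 in EPS.

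Promoter sequence from RefSeq (build GRCm38.p6) was matched by symbol for 22 of the 36 genes and was read for E-boxes, the letters bound by myogenic factors such as MyoD and myogenin, and for the site of MEF2 factors. The 5 windows shown each hold such a site and belong to genes described below: the pore subunit of the voltage sensor, the coat protein caveolin-3, the fast-muscle calcium store protein and pump, and parvalbumin. Each gives the 250 bases before the RefSeq start, 5′ to 3′, less 61 bases in Cacna1s and 35 in Atp2a1 that a GENCODE gene model already places inside the gene. For Pvalb, which has 2 listed starts, the upstream one is shown. Capitals mark CAGCTG, the E-box letters CACCTG or their reverse complement CAGGTG, or in Pvalb the MEF2 site.
Cacna1s, chr1:136052561-136052749, plus strand: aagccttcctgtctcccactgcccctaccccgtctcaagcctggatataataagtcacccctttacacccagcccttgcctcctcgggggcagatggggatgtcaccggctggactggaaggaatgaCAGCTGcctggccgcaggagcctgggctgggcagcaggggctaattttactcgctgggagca
Cav3, chr6:112459255-112459504, plus strand: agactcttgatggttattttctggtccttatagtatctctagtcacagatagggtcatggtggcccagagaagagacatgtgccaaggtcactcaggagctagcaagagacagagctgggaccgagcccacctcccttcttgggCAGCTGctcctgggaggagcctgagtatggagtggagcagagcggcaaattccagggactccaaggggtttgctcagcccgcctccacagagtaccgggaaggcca
Casq1, chr1:172219896-172220145, minus strand: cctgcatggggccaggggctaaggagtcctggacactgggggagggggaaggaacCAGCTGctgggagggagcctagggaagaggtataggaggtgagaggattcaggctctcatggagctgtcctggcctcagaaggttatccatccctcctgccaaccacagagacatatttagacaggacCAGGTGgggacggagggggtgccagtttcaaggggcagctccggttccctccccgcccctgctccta
Atp2a1, chr7:126463109-126463323, minus strand: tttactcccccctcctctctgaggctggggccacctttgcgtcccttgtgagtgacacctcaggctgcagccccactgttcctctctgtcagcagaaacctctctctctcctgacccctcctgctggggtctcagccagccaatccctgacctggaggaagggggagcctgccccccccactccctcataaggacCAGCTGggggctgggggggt
Pvalb, chr15:78206401-78206650, minus strand: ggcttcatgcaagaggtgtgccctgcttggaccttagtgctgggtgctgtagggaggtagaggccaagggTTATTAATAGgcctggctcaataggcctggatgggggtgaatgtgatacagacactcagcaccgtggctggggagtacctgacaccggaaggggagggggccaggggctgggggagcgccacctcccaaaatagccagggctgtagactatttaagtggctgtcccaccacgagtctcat
CAGCTG, which is its own reverse complement, stood in the window of 9 of the 22 matched genes (40.9%), against 14.7% of all 27018 genes with a window of that length. The 9 were Atp2a1, Cacna1s, Casq1, Cav3, Fkbp1a, Hrc, Jph2, Kcnj2 and Orai1. CACCTG on either strand stood in 2 of 22 (9.09%, Casq1 and Clcn1) against 19.4% of all genes, and the MEF2 site in 3 of 22 (13.6%, Casq2, Clcn1 and Pvalb) against 3.41%. The motifs do not overlap each other in the windows shown, and a match is a description of letters, not of binding.

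Most of the 34 tested coupling and channel genes had lower fitted levels in EPS myotubes, and 1 of 34 passed the test. Stac3, the adaptor that brings the voltage sensor to the triad, fell by 1.16 on the log2 scale, and 0 genes rose (edgeR's quasi-likelihood test, Benjamini-Hochberg adjustment over 13987 genes, threshold 0.05). The background of calls over all tested genes was 0.758% lower and 2.3% higher. Of the 34 genes, 27 had a log2 fold change below 0 (79.4%, against 49.1% of all tested genes), with a median of −0.27 against 0.01 over all genes. Of the 34, 10 had an unadjusted p under 0.05, all 10 below 0, where over all tested genes 18.5% had such a p and 6.33% had it with a value below 0. DESeq2 called 4 lower and 0 higher (background 2.1% lower and 4.53% higher). The genes share libraries and are not independent replicates of the difference.

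Replicate numbers 1 to 4 were taken as pairs of control and EPS libraries from correlations in these same data. The labels do not say what the numbers mark, and control replicates 3 and 4 each correlated with both EPS replicates 3 and 4 (r of 0.23 to 0.30). A fit with the number as a block called 6 lower and 0 higher, where the background was 4.78% lower and 7.31% higher. The 6 were Stac3 with Cav3, Pvalb, Srl, Tmem38a and Tmem38b, the last 4 of them store and buffering genes. In the plot of fold changes by role these are the filled points. With an offset for transcript length and GC content the count was 7 lower and 0 higher (background 1.97% and 3.63%), namely Stac3, Cacnb1, Cav3, Srl, Tmem38a, Tmem38b and Scn4a. Under both the block and the offset alone Stac3, Cav3, Srl, Tmem38a and Tmem38b were called lower. With block and offset together 12 were lower and 0 higher (background 6.71% and 8.67%). Leaving out the shallow control replicate 2 gave 1 lower and 0 higher with no block (background 1.16% and 1.97%), and leaving out both replicate 2 libraries gave 13 lower and 0 higher with the block (background 8.23% and 9.1%). The block without replicate 2 was chosen after seeing the data, which holds wherever it is cited for a gene below.

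**Figure D1:**
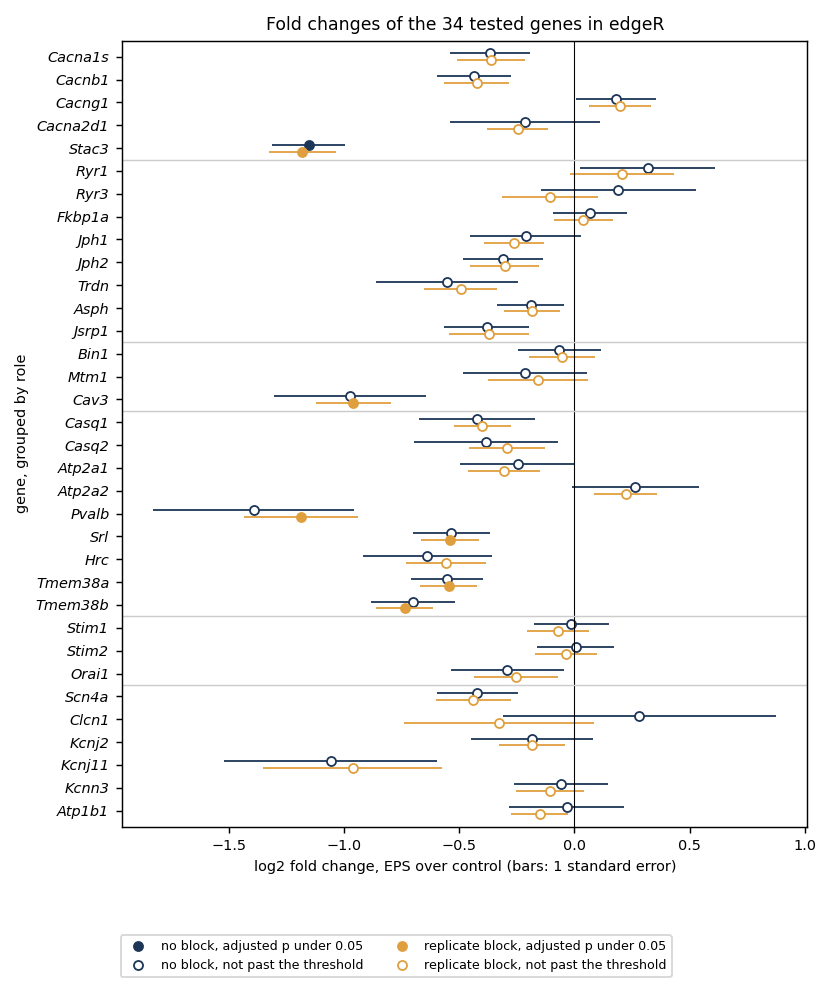
Log2 fold change of EPS over control (horizontal axis) for the 34 tested genes, grouped by role from voltage sensor (top) to membrane channels and pump (bottom), from edgeR without and with the replicate number as a block; bars are 1 standard error and filled points have an adjusted p under 0.05. Points lie left of 0 for 27 of 34 genes without the block and 30 of 34 with it, with 1 filled point without the block and 6 with it. Over all tested genes 49.1% were below 0 without the block and 47.8% with it. Without the block 0.758% of them were called lower and 2.3% higher, and with it 4.78% and 7.31%.

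Without any model, the 4 EPS values lay below all 4 control values for 5 of 34 genes (Stac3, Tmem38a, Tmem38b, Srl and Hrc) and above for 0, where the background over tested genes was 4.83% below and 9.32% above. Leaving out the shallow control replicate 2, the count below was 13 and above 0, against a background of 11% and 13.8%. The 8 added genes were Cacna1s, Cacnb1, Jph2, Cav3, Casq1, Pvalb, Scn4a and Kcnj11. Control replicate 2 was the lowest control library for 17 of the 34 genes and the highest for 13, so it sat at 1 end of its group for most of them. For each library and gene the log2 deviation was taken from the gene's mean over the 4 control libraries, which places control near 0. Its median over the 34 genes was −0.10 to 0.15 in control and −0.41 to −0.21 in EPS, with no overlap. Over all 13987 tested genes it was −0.19 to 0.08 in control and 0.10 to 0.12 in EPS, also without overlap but with EPS higher.

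**Figure D2:**
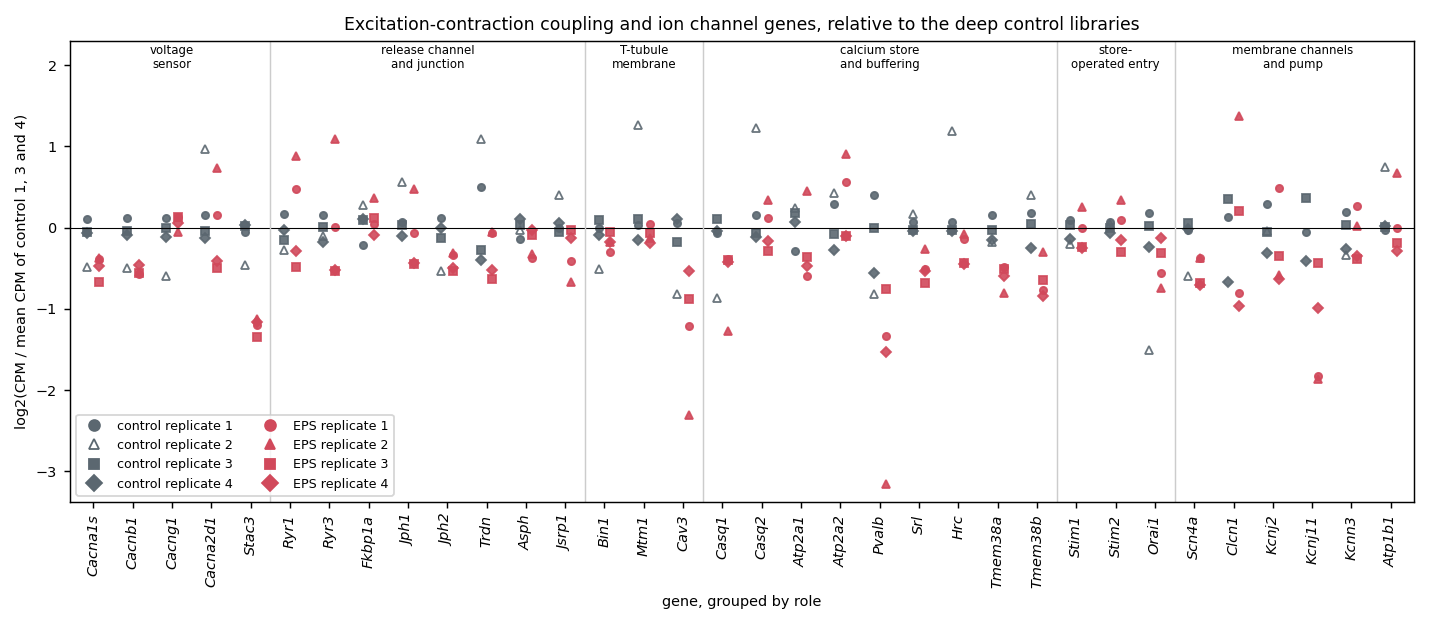
Level of each tested gene in each library as log2 of its CPM over the mean CPM of control replicates 1, 3 and 4 (vertical axis), with genes in order of role (horizontal axis), control in grey and EPS in red; the shallow control replicate 2 is drawn open, and its counts of 0 for Clcn1 and Kcnj11 have no point. Stac3 stands apart as a tight red group below 0, while Cav3, Pvalb, Ryr1, Ryr3 and the low-count Clcn1 and Kcnj11 spread widely within EPS.

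Summed markers of differentiated myotubes were also lower in EPS. The labelled cell type was met, since Myog, Mymk, Myh3, Myh8, Ckm, Acta1, Tnnt3, Des and Actn2 were all detected in every library, and for Ttn the table skips the estimate. Summed CPM of these 9 genes was 23209 to 25927 in control and 14135 to 19113 in EPS, with no overlap. Of the 9, 0 passed the test in edgeR, 6 had an unadjusted p under 0.05, all 9 had a log2 fold change below 0 (median −0.54), 6 were called lower with the block and 5 by DESeq2, against the backgrounds of 49.1% below 0, 4.78% lower with the block and 2.1% lower by DESeq2. Myogenin (Myog), the factor that drives fusion and late muscle genes, averaged 1193 CPM in control and 567 CPM in EPS. Their part in the values of the coupling genes was not tested, and in bulk RNA fewer myotubes and less of these RNAs per myotube cannot be told apart.

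Summed markers of the other cell types overlapped between the groups, those of neurons and glia through control replicate 2 alone. Markers of undifferentiated or dividing myoblasts summed to 450.2 to 965 CPM in control and 353 to 764 in EPS (10 of 10 below 0, 0 called), and those of fibroblasts to 83.0 to 261 and 56.4 to 197 CPM, with Tcf21 at 0. The fibroblast sum is mostly Dcn (decorin), which averaged 142 CPM in control and 96.5 CPM in EPS and was called lower with the block (adjusted p = 0.0219 in edgeR). Pdgfra, a growth factor receptor of fibroblasts, went the other way without overlap, from 8.17 CPM in control to 16.5 CPM in EPS, with a log2 fold change of 0.91 and an adjusted p of 0.0542 in edgeR, 0.0141 with the block and 0.0208 in DESeq2. Neuron and glia markers summed to 60.5 to 96.6 and 90.1 to 114 CPM, 60.5 to 82.9 CPM in the 3 deep control libraries, with Snap25, Syt1 and Rbfox3 at 0 in every library and their part in the results not tested. Tubb3, a neuronal tubulin that makes up most of that sum, averaged 74.6 CPM in control and 100.3 CPM in EPS (adjusted p = 0.195 in edgeR and 0.0453 with the block), and Mbp, a myelin gene, was above control in every EPS library at 0 to 0.472 CPM in control and 0.669 to 1.12 CPM in EPS (adjusted p = 0.104 in edgeR). The part of Pdgfra, Dcn, Tubb3 and Mbp in the values of the coupling genes was not tested. Adipocyte markers stayed at 0 to 0.157 and 0 to 0.642 CPM, and endothelial and blood cell markers at 0 to 0.472 and 0.185 to 11.3 CPM, with Adgre1 and Hbb-bs at 0. The upper values come mostly from Pecam1, with 42 and 135 fragments in EPS replicates 1 and 2 against 0 to 3 in every other library. Its part in the values of the coupling genes was not tested.

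The voltage sensor is a channel complex whose pore subunit, Cacna1s, is carried to the triad with a beta subunit (Cacnb1), a gamma subunit (Cacng1), an alpha2delta subunit (Cacna2d1) and the adaptor Stac3, without which voltage does not open the release channel. Of these 5 genes 1 fell and 4 did not pass the test (median log2 fold change −0.37), where the background was 0.758% lower and 2.3% higher. Stac3 (ENSMUSG00000040287.9, chr10:127501686-127508823, plus strand, GRCm38) read 33.9, 25.6, 35.7 and 35.8 CPM in control replicates 1 to 4 and 15.3, 16.1, 13.9 and 15.7 CPM in EPS replicates 1 to 4. The groups did not overlap, the EPS libraries lay close together, and control replicate 2 rests on 9 fragments. Its control mean was 32.8 ± 4.87 CPM (SD, n = 4) and its EPS mean 15.2 ± 0.972 CPM (SD, n = 4), for a log2 fold change of −1.16 (SE 0.157, adjusted p = 0.00426) in edgeR. Leaving out each library in turn kept its adjusted p between 0.00318 and 0.0325, and without control replicate 2 the control mean was 35.1 CPM.

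The other 4 genes of the complex did not pass the test, and their fold changes differed in sign. Cacna1s read 698, 463, 624 and 619.9 CPM in control replicates 1 to 4 and 497, 499, 408 and 466 CPM in EPS replicates 1 to 4. Every EPS library was below the 3 deep control libraries and only EPS replicate 3 below control replicate 2, and the log2 fold change was −0.37 (SE 0.174, adjusted p = 0.293). It was called lower with block and offset together (−0.44, adjusted p = 0.0184) and with the block without replicate 2 (−0.51, adjusted p = 0.00905), though not with the block alone (adjusted p = 0.145 in edgeR). Cacnb1, whose product chaperones the pore subunit to the membrane, read 354, 230.1, 316 and 304 CPM in control replicates 1 to 4 and 219, 221, 221 and 236 CPM in EPS replicates 1 to 4. Its EPS values lay within a narrow band below every deep control library but close to control replicate 2, with a log2 fold change of −0.44 (SE 0.162, adjusted p = 0.182) and, with the length and GC offset, −0.51 (adjusted p = 0.0392). With block and offset its adjusted p was 0.0109, and with the block without replicate 2 it was 0.00904, in edgeR. Cacnb1 did not pass with the block alone (adjusted p = 0.0793 in edgeR), without control replicate 2 (0.0518) or in DESeq2 (0.0645). Cacng1 averaged 302 CPM in control and 346 CPM in EPS, and Cacna2d1 averaged 579 CPM in control and 494 CPM in EPS, neither past the test (adjusted p = 0.632 and 0.773 in edgeR). Cacna2d1 spread from 332 to 774 CPM within EPS. Per transcript length the control means of the channel subunits were 231 FPKM for Cacng1, 96.2 FPKM for Cacnb1, 85.1 FPKM for Cacna2d1 and 77.5 FPKM for Cacna1s (FPKM, fragments per kilobase and M fragments), with Stac3 at 12.9 FPKM.

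Release channel and junction genes did not pass the test, 0 of 8 in either direction in edgeR with 0 at an unadjusted p under 0.05 and 0 called by DESeq2 or with the block alone (median log2 fold change −0.20). With block and offset together 2 of 8 were called lower, Jph2 and Trdn (background 6.71% lower and 8.67% higher). With the block without replicate 2 the count was 1 of 8, Jph2 (background 8.23% lower and 9.1% higher). Ryr1, the skeletal muscle ryanodine receptor, read 1369, 1011, 1103 and 1194 CPM in control replicates 1 to 4 and 1703, 2257, 876 and 999 CPM in EPS replicates 1 to 4. EPS replicates 1 and 2 were above every control library and EPS replicates 3 and 4 below every one, so the groups overlapped and the log2 fold change of 0.32 (SE 0.294, adjusted p = 0.613) averages opposite shifts. Ryr3, the release channel of developing muscle, read 78.4, 65.3, 70.9 and 62.1 CPM in control replicates 1 to 4 and 70.7, 149.9, 48.7 and 49.3 CPM in EPS replicates 1 to 4, with EPS replicate 2 alone far above control and replicates 3 and 4 below every control library. Its log2 fold change was 0.19, −0.11 with the block and −0.32 without EPS replicate 2, so its direction changes with the setting. The gene overlaps Aven on the opposite strand, and whether the counting used strand is not stated in the labels, so reads of the pair may be shared.

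Junctophilins tether the store membrane to the T-tubule. Jph1 averaged 276 CPM in control and 236 CPM in EPS, and Jph2 averaged 423 CPM in control and 343 CPM in EPS with log2 fold changes of −0.21 and −0.31 (adjusted p = 0.688 and 0.378 in edgeR). Without control replicate 2 the log2 fold change of Jph1 was −0.07. Jph2 was below the 3 deep control libraries in every EPS library, and its log2 fold change was −0.45 (adjusted p = 0.0139) with block and offset and −0.46 (adjusted p = 0.0115) with the block without replicate 2. Trdn, which encodes triadin, the anchor between the store protein and the release channel, averaged 93.9 CPM in control and 59.6 CPM in EPS over control libraries that ranged from 55.3 to 156 CPM. Its log2 fold change was −0.55 (SE 0.307, adjusted p = 0.370), and −0.46 (adjusted p = 0.0340) with block and offset. Without control replicate 2, the highest of the control libraries, the control mean of Trdn was 73.1 CPM and its log2 fold change −0.30. Asph (junctin, its partner, and from the same gene a hydroxylase) had a log2 fold change of −0.19, Jsrp1 (the junctional protein JP-45) of −0.38, and Fkbp1a (the calstabin FKBP12, which binds the release channel) of 0.07, with adjusted p from 0.306 to 0.867 in edgeR. Fkbp1a may be undercounted where reads match near-identical copies elsewhere in the genome.

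Of the 3 T-tubule membrane genes, Cav3 showed the widest difference, and 0 of 3 passed the test without the block (median −0.22). Cav3 (chr6:112459505-112472872, plus strand), the gene of caveolin-3, the muscle coat protein of caveolae and forming T-tubules whose promoter is shown above, read 140.1, 76.7, 119 and 145 CPM in control replicates 1 to 4 and 58.2, 27.3, 73.0 and 92.9 CPM in EPS replicates 1 to 4. All 4 EPS values lay below the 3 deep control libraries, but EPS replicate 4 exceeded control replicate 2. EPS replicate 2 was the lowest of all 8. Means were 120.3 ± 31.2 CPM and 62.9 ± 27.7 CPM (SD, n = 4 each), with a log2 fold change of −0.97 (SE 0.330, adjusted p = 0.148) in edgeR and −0.96 (adjusted p = 0.00471) with the block. Each same-numbered pair had EPS below control. Bin1 (amphiphysin-2, which curves the tubule membrane) averaged 1191 CPM in control and 1139.8 CPM in EPS, and Mtm1 (myotubularin, a lipid phosphatase) averaged 9.57 CPM in control and 6.69 CPM in EPS, with log2 fold changes of −0.07 and −0.22 (adjusted p = 0.888 and 0.723). The Mtm1 control mean rests in part on 6 fragments in control replicate 2, without which it was 7.08 CPM.

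Calcium store and buffering genes had the lowest median of the 6 roles (−0.53), with 8 of 9 tested genes below 0 and 5 at an unadjusted p under 0.05, though 0 of 9 passed the test without the block. With the block 4 of 9 were called lower, Pvalb, Srl, Tmem38a and Tmem38b, and DESeq2 called 3, against backgrounds of 4.78% and 2.1% lower. TRIC channels carry the potassium current that balances calcium leaving the store. Tmem38a (TRIC-A, the striated muscle form; chr8:72572055-72587282, plus strand) read 432, 341, 379.6 and 349.5 CPM in control replicates 1 to 4 and 276, 222, 272 and 256 CPM in EPS replicates 1 to 4. Tmem38b (TRIC-B, the broadly expressed form; chr4:53826045-53862019, plus strand) read 78.0, 90.9, 70.6 and 57.7 CPM in control replicates 1 to 4 and 40.2, 55.7, 43.9 and 38.3 CPM in EPS replicates 1 to 4. For both genes every EPS library was below every control library. The log2 fold changes were −0.55 (SE 0.155, adjusted p = 0.0868) and −0.70 (SE 0.184, adjusted p = 0.0712) in edgeR, and −0.55 (adjusted p = 0.0186) and −0.74 (adjusted p = 0.00444) with the block. Without EPS replicate 2 Tmem38b passed the test with no block, at an adjusted p of 0.0307.

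Srl encodes sarcalumenin, a calcium-binding glycoprotein of the store that stabilises the pump. It read 1173, 1259, 1093 and 1083 CPM in control replicates 1 to 4 and 786, 931, 695 and 768 CPM in EPS replicates 1 to 4 (chr16:4480216-4541816, minus strand), with no overlap, a log2 fold change of −0.53 (SE 0.166, adjusted p = 0.117) in edgeR and −0.54 (adjusted p = 0.0211) with the block. Hrc, the histidine-rich calcium-binding protein of the store, read 335, 727, 314 and 312 CPM in control replicates 1 to 4 and 289.8, 302, 237 and 236 CPM in EPS replicates 1 to 4. Its groups did not overlap either, but the control mean leaned on control replicate 2, and the log2 fold change of −0.64 (SE 0.280, adjusted p = 0.253) was −0.27 without that library. With the block without replicate 2 it was −0.35 (adjusted p = 0.0391 in edgeR), and with the block alone −0.56 (adjusted p = 0.0665). Pvalb, the cytosolic calcium buffer of fast fibres (chr15:78191114-78206400, minus strand), read 13.2, 5.68, 9.92 and 6.79 CPM in control replicates 1 to 4 and 3.97, 1.12, 5.90 and 3.46 CPM in EPS replicates 1 to 4. These are low counts, down to 14 fragments in EPS replicate 2 and 2 in control replicate 2, whose value lies under its limit of 8.52 CPM. All 4 EPS values were below the 3 deep control libraries, and the log2 fold change was −1.39 (SE 0.436, adjusted p = 0.119) in edgeR and −1.19 (adjusted p = 0.0124) with the block.

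Calsequestrin holds calcium inside the store. Casq1, the fast-muscle form, read 276, 159, 313 and 283 CPM in control replicates 1 to 4 and 222, 121, 221 and 217 CPM in EPS replicates 1 to 4. The EPS libraries were below the 3 deep control libraries, while control replicate 2 and EPS replicate 2 were each the lowest of their group. Casq2, the cardiac and slow form, read 1816, 3796, 1561 and 1508 CPM in control replicates 1 to 4 and 1769, 2064, 1335 and 1458 CPM in EPS replicates 1 to 4, with control replicate 2 above every other library. The log2 fold changes were −0.42 (SE 0.251, adjusted p = 0.406) and −0.38 (SE 0.312, adjusted p = 0.555), the second of which became 0.02 without control replicate 2. Casq1 was called lower with the block without replicate 2 (−0.41, adjusted p = 0.0200 in edgeR). It did not pass with the block alone (adjusted p = 0.0637 in edgeR), with block and offset (0.0552) or in DESeq2 (0.397). SERCA pumps refill the store. Atp2a1, the fast-muscle pump, read 615, 886, 846 and 782 CPM in control replicates 1 to 4 and 493, 1021, 583 and 536 CPM in EPS replicates 1 to 4, and it overlaps Rabep2 on the opposite strand, whose reads may be shared. Atp2a2, the slow and cardiac pump, read 2053, 2253, 1591 and 1381 CPM in control replicates 1 to 4 and 2471, 3146, 1562 and 1553 CPM in EPS replicates 1 to 4. Within EPS, replicate 2 was the highest for both pumps, and the groups overlapped for both. The log2 fold changes were −0.25 (SE 0.251, adjusted p = 0.648) for Atp2a1 and 0.26 (SE 0.276, adjusted p = 0.657) for Atp2a2. Atp2a1 was called lower with block and offset (−0.36, adjusted p = 0.0479) and with the block without replicate 2 (−0.48, adjusted p = 0.0144).

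Ranked by FPKM in control, Casq2 had the highest level of the 36 genes (695 FPKM ± 312, SD, n = 4), followed by Atp2a2 (422 FPKM ± 102) and Bin1 (404 FPKM ± 54.7), and the control range of Atp2a2 overlapped those of both others. Srl (272 FPKM), Cacng1 (231 FPKM), Atp2a1 (201 FPKM) and Tmem38a (171 FPKM) came next. Ryr1 stood at 57.4 FPKM, from deposited values that the table marks as failed estimates in 6 of 8 libraries, while its fragment counts were kept for the test. At the low end were Ryr3 (3.62 FPKM), Mtm1 (3.36 FPKM), Kcnj11 (0.257 FPKM) and Clcn1 (0.185 FPKM), the last 2 with a control library listed at 0.

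**Figure D3:**
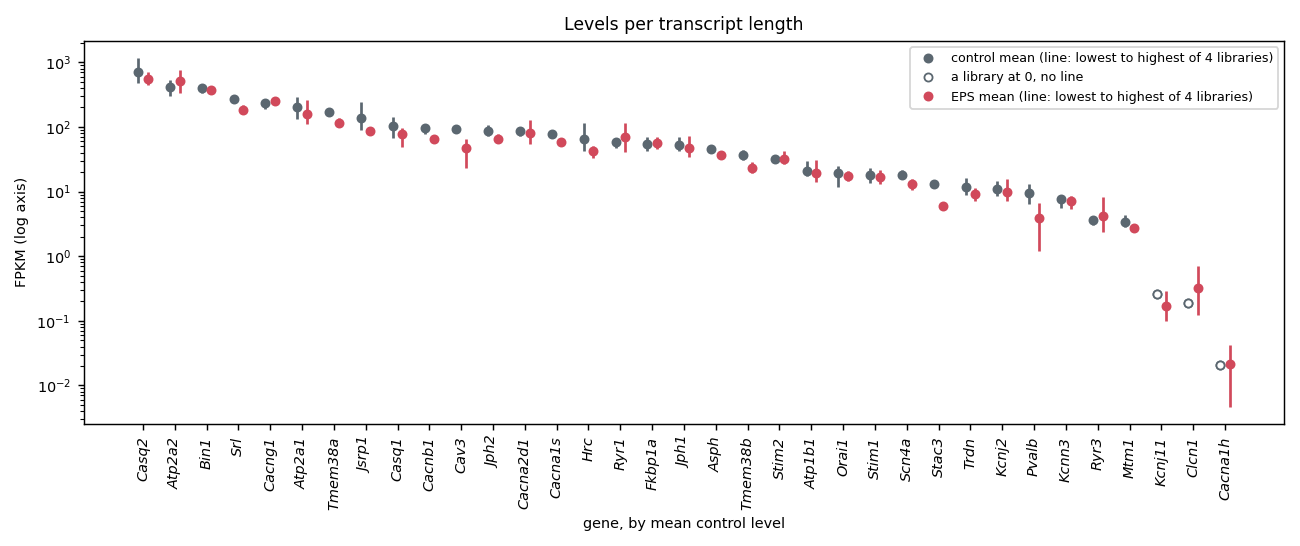
Control (grey) and EPS (red) mean FPKM of 35 genes on a log axis (vertical), in order of control mean (horizontal); lines run from the lowest to the highest of 4 libraries, open points mark genes with a library at 0, and Sln, listed at 0 throughout, is not drawn. Levels run from 695 FPKM for Casq2 to 0.021 FPKM for Cacna1h, and the control and EPS ranges overlap for 26 of 35 genes, with EPS below control for the other 9, all among the 34 tested, where over all tested genes 4.24% lay below and 8.84% above.

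Several of these genes form pairs of paralogs, and the log2 ratio of their fragment counts within a library is free of library size. The ratio of Atp2a1 to Atp2a2, fast to slow pump, was −1.74, −1.34, −0.91 and −0.82 in control replicates 1 to 4 and −2.32, −1.62, −1.42 and −1.53 in EPS replicates 1 to 4. It was lower in EPS in every same-numbered pair, but the groups overlapped and the difference was −0.52 (exact two-sided permutation test, p = 0.171, 0.857 adjusted over 6 pairs). The smallest p the test can give is 0.0286, and over the 4 pairs it is 0.125, which the paired test of this ratio reached. Ryr1 to Ryr3 was 4.12, 3.92, 3.96 and 4.26 in control and 4.59, 3.91, 4.17 and 4.34 in EPS, so Ryr1 fragments outnumbered those of Ryr3 in every library. Its difference between groups was 0.18 (exact two-sided permutation test, p = 0.314, 0.857 adjusted over 6 pairs). Casq1 to Casq2 was −2.72, −4.56, −2.32 and −2.42 in control and −2.99, −4.09, −2.59 and −2.75 in EPS, lowest in replicate 2 of each group, with a difference of −0.10 (exact two-sided permutation test, p = 0.8, 0.943 adjusted over 6 pairs). For Jph1 to Jph2, Tmem38a to Tmem38b and Stim1 to Stim2 the differences were 0.03, 0.19 and 0.01, with p from 0.429 to 0.943 in the same test.

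**Figure D4:**
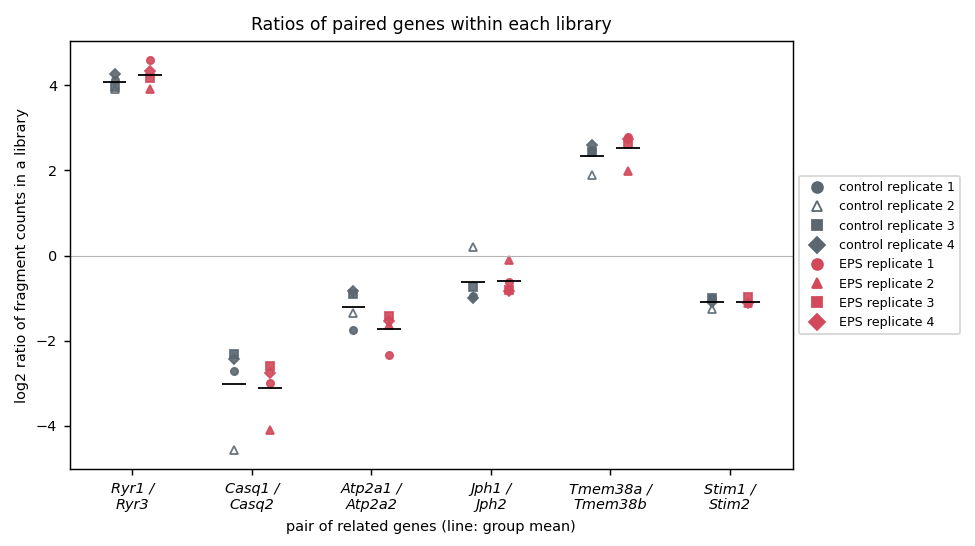
Log2 ratio of the fragment counts of 2 related genes within each library (vertical axis) for 6 pairs (horizontal axis), control in grey with replicate 2 open and EPS in red; horizontal lines are group means. Libraries of the groups overlap in every pair, and replicate 2 of both groups lies lowest for Casq1 over Casq2 and highest for Jph1 over Jph2.

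Store-operated entry genes showed no difference that passed the test, 0 of 3 in either direction in edgeR, with 0 at an unadjusted p under 0.05 and 0 by DESeq2 (median −0.01). Stim1, the calcium sensor of the store, averaged 75.7 ± 7.34 CPM in control against 75.9 ± 13.1 CPM in EPS (SD, n = 4 each). Stim2, its paralog, averaged 161 ± 6.69 CPM against 161 ± 31.9 CPM (likewise). Both means differ by less than the spread between libraries, and both log2 fold changes change sign under other settings. Orai1, the pore of the entry channel, ranged from 14.2 to 45.8 CPM in control, the lowest from 5 fragments in control replicate 2, and from 24.1 to 37.0 CPM in EPS. Its log2 fold change was −0.29 (SE 0.245, adjusted p = 0.572).

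Among the membrane channels and pump genes, 6 of 7 were tested, 0 passed and 2 had an unadjusted p under 0.05, Scn4a and Kcnj11 (median −0.12; DESeq2 called 0). Scn4a, the sodium channel that carries the muscle action potential, read 159.6, 108, 169 and 161 CPM in control replicates 1 to 4 and 126, 126, 102 and 100.5 CPM in EPS replicates 1 to 4. Its EPS values were below the 3 deep control libraries, with a log2 fold change of −0.42 (SE 0.174, adjusted p = 0.227) in edgeR and −0.50 (adjusted p = 0.0367) with the length and GC offset. Its adjusted p was 0.0143 with block and offset and 0.00737 with the block without replicate 2. Scn4a did not pass with the block alone (adjusted p = 0.112 in edgeR), without control replicate 2 (0.0724) or in DESeq2 (0.173). Kcnj11, the pore of the ATP-sensitive potassium channel, had 26, 0, 24 and 23 fragments in control and 8, 5, 21 and 16 in EPS, and its log2 fold change of −1.06 (SE 0.464, adjusted p = 0.254) rests on these few. The count of 0 comes from control replicate 2, where it allows up to 8.52 CPM. Clcn1, the chloride channel that steadies the resting membrane, had 20, 0, 16 and 13 fragments in control and 11, 32, 22 and 11 in EPS. It overlaps Fam131b on the opposite strand, its log2 fold change of 0.28 became −0.38 without EPS replicate 2, and it is a low-count gene in both groups.

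Kcnj2, the inward rectifier that sets the resting potential, averaged 52.3 CPM in control and 46.1 CPM in EPS, with EPS libraries from 34.0 to 73.9 CPM. Kcnn3, a calcium-activated potassium channel of immature or denervated muscle, averaged 27.2 CPM in control and 27.0 CPM in EPS. Atp1b1, the beta subunit of the sodium-potassium pump, averaged 51.5 CPM in control and 47.2 CPM in EPS, with the replicate 2 library the highest of each group and an overlap with Nme7 on the opposite strand. Their log2 fold changes were −0.19, −0.06 and −0.03 (adjusted p = 0.757, 0.914 and 0.963 in edgeR).

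EPS libraries differed among themselves along transcript length. Replicate 2 was the highest EPS library for 19 of the 34 tested genes and the lowest for 8. Among the lowest were the short transcripts of Pvalb (977 bases) and Cav3 (1157 bases), while Ryr1 (15358 bases) and Ryr3 (15468 bases) were at their highest there. Pearson's r was taken between log2 transcript length and a library's log2 deviation from the gene's mean over the control libraries without replicate 2. It was 0.53, 0.62, −0.02 and 0.16 for EPS replicates 1 to 4 over the 34 genes, which share library and depth. Over 13947 tested genes with a length it was 0.20, 0.22, −0.11 and −0.07. In control replicates 1 to 4, with deviations from the mean of all 4 control libraries, the 34 genes gave −0.06, 0.14, −0.14 and −0.17. The control values are thus on another reference than the EPS values, which also hold the difference between the groups. The part of length in the differences between groups was not tested beyond the offset, under which Ryr1's log2 fold change went from 0.32 to 0.03 and that of Stac3 from −1.16 to −1.04 (adjusted p = 0.00688 in edgeR). Between log2 length and log2 fold change, r over the 34 genes was 0.52 without the offset and still 0.34 with it. Over the 13947 genes it was 0.10 and −0.04.

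**Figure D5:**
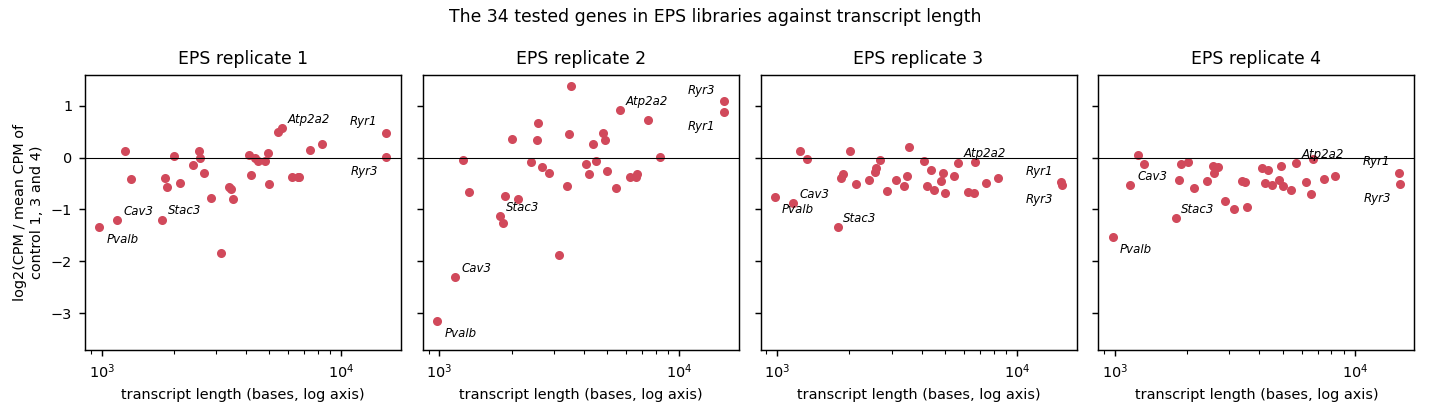
Log2 of CPM in 1 EPS library over the mean CPM of control replicates 1, 3 and 4 (vertical axis) against the length of the longest transcript on a log axis (horizontal), 1 point per tested gene and 1 panel per EPS library. In EPS replicates 1 and 2 the short transcripts of Pvalb and Cav3 lie low and the long ones of Ryr1 and Atp2a2 above 0. Not all genes follow length there: Cacna1s, Scn4a and Asph, each longer than Atp2a2, lie below 0, and the short Cacng1 lies near 0. In replicates 3 and 4 the points form a flat band and Stac3 stays below it or near its lower edge.

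Beyond the 36 genes, 105 further genes of the same systems gave 77 tested, 0 higher and 1 lower in edgeR, with 24 at an unadjusted p under 0.05 (16 of them below 0) and a median log2 fold change of −0.05. Over all tested genes 0.758% were called lower and 2.3% higher, 18.5% had an unadjusted p under 0.05, and 6.33% had it with a value below 0. The 1 was Scn7a, a gene of the voltage-gated sodium channel family, which read 25.4, 22.7, 23.2 and 22.5 CPM in control replicates 1 to 4 and 3.55, 3.53, 8.07 and 8.86 CPM in EPS replicates 1 to 4. Every EPS library was far below every control library, with a log2 fold change of −1.96 (SE 0.322, adjusted p = 0.0106). Leaving out control replicate 1 raised its adjusted p to 0.0540. DESeq2 called 2 higher and 6 lower of the 77, against its background of 4.53% and 2.1%.

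By list, 0 of 7 tested genes of other calcium channel subunits passed (median 0.27), the most abundant being Cacnb3 at 127 CPM in control and 112 CPM in EPS. Of other release and junction genes 0 of 11 passed (median −0.26). Of other T-tubule and caveola genes 0 of 7 passed (median −0.47), the most abundant being Cavin4, a muscle caveola coat gene, at 664 CPM in control and 481 CPM in EPS, with a log2 fold change of −0.47 (SE 0.153, adjusted p = 0.135) and −0.47 (adjusted p = 0.0480) with the block. Of other store and calcium handling genes 0 of 15 passed (median −0.04), with Calr, the calreticulin gene, at 1551 CPM in control and 1511 CPM in EPS. Of other store-operated and TRP channel genes 0 of 9 passed (median 0.07), with the stretch-activated channel gene Piezo1 at 232 CPM in control and 355 CPM in EPS and an EPS range of 222 to 608 CPM.

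With the block 16 of the 77 were called lower and 4 higher, against the block's background of 4.78% and 7.31%. The T-tubule and caveola list gave 4 lower of 7 (Cavin4, Cav1, Tcap and Mtmr1) and the store list 3 lower of 15, among them Mcu, the pore of the mitochondrial calcium uniporter, and the pump inhibitor Mrln (myoregulin). These were named after their values were seen. The 4 higher were Atp2b1, a calcium pump of the surface membrane at 279 CPM in control and 526 CPM in EPS, the potassium channel Kcnk2 at 1.54 CPM in control and 4.91 CPM in EPS, Panx1, which forms a pannexin channel, at 38.9 CPM in control and 52.5 CPM in EPS, and Atp1b4, at under 2 CPM in every library. Their log2 fold changes with the block were 0.95 (adjusted p = 0.00273), 1.29 (adjusted p = 0.0185), 0.55 (adjusted p = 0.0274) and 1.65 (adjusted p = 0.0445) in the same order.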

How the data were processed

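Cellular RNA of 4 control and 4 EPS libraries was prepared with a strand-marking total RNA kit, as the labels' protocols give it, and each library was run on 2 lanes, which GEO lists as 16 samples. The aligner was STAR 2.5.1 and the quantification Cufflinks with Cuffdiff 2.2.1 on build mm10, per the submitters' processing notes. The deposited table holds, for each gene in each library, an estimated count of fragments and an FPKM value scaled by the authors' software, per the file headers. Neither the strand setting nor the annotation release is stated in the labels. Symbols came from GENCODE (GRCm38), for 48051 of 48432 identifiers. In 46 genes, none of them among the 36, the table skips the estimate because of too many fragments, and these were left out. Estimated counts, 93.3% of those above 0 whole, were rounded.

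Genes were filtered with filterByExpr (minimum count 10, minimum total 15), scaled by TMM and tested with edgeR 4.0.16 (R 4.3.3, limma 3.58.1), with all 8 libraries, no covariate and Benjamini-Hochberg adjustment over 13987 genes. Standard errors are derived from the F statistic. Fold changes are fitted and need not equal ratios of mean CPM. The fits were tested on simulated data. Alternatives were DESeq2 1.42.0, no filter, the replicate block, an offset per library fitted on length and GC content of the longest transcript over genes of at least 20 CPM, limma on log2(FPKM + 1) and log2(FPKM + 0.1), and leaving out each library. A block without replicate 2 was chosen after seeing the data. Paralog ratios (prior count 0.5) had exact permutation tests (scipy 1.17.1).

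Same-numbered control and EPS libraries deviated together from their group means (r of 0.30, 0.21, 0.29 and 0.30 for numbers 1 to 4, over genes), each above 0.1, so the numbers were taken as pairs. Control 3 with EPS 4 and control 4 with EPS 3 also correlated, at 0.23 and 0.25. What a number marks is not stated in the labels. The 36 genes and the further lists were chosen with earlier results of these data known. All 36 are named. Of the further lists, genes past the threshold are named, or the most abundant gene where none passed, except some that are not reported here.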

Additional observations from a re-analysis of the deposited data

Results flagged for a closer look

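In each group of 4 libraries the highest or lowest log2 CPM value (prior count 2) was checked against the others, for 34 genes in 2 groups, and 6 of 68 checks stood out by Dixon's 95% criterion, the gap to the next library as a share of the group's range. Chance gives about 1 in 20 such checks. Control replicate 2, the shallow library, was the library that stood apart in 4 of the 6. It was the lowest for Stac3 at 4.68, against 5.09 to 5.17 in the other control libraries. For Scn4a it was also the lowest, at 6.76 against 7.32 to 7.41. It was the highest for Hrc, at 9.51 against 8.29 to 8.39, and for Atp1b1, at 6.21 against 5.44 to 5.49. In EPS, Casq1 in replicate 2 was the lowest at 6.92, against 7.76 to 7.80. Cacnb1 in EPS replicate 4 was the highest at 7.88, against 7.77 to 7.79, a gap that is small beside the difference between groups. The part of the low depth of control replicate 2 in these values was not tested.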

How the results depend on the processing

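Counts of called genes moved with the setting. Against 322 genes higher and 106 lower over all tested genes, DESeq2 called 633 and 294, the replicate block 1023 and 668, the length and GC offset 508 and 275, both together 1213 and 938, limma 130 and 48 on log2(FPKM + 1) and 94 and 29 on log2(FPKM + 0.1), and no filter 447 and 162. The block without replicate 2, chosen after seeing the data, called 1290 and 1167. Leaving out 1 library gave 92 to 427 higher and 22 to 167 lower. Of the 36 genes, 1 lower became 4 with DESeq2, 6 with the block, 7 with the offset, 12 with both (background 6.71%), 13 with the block without replicate 2 (background 8.23%), and 1 to 2 without 1 library, where the second was Tmem38b without EPS replicate 2. None was called higher under any of these. Stac3 passed under each of them and under limma and no filter. The replicate block changed no call among the 36 beyond the 5 it added. Of the further 105 genes, 0 higher and 1 lower became 2 and 6 with DESeq2, 4 and 16 with the block, 2 and 6 with the offset, 5 and 18 with both, 5 and 19 with the block without replicate 2, 2 lower with no filter, 0 lower with limma on log2(FPKM + 0.1), and 0 to 1 higher and 0 to 3 lower without 1 library. The cause of these shifts was not tested. In control replicate 2, at 0.354 M fragments, a count of 0 allows up to 8.52 CPM, above its values for Pvalb, Clcn1 and Kcnj11.

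The log2 fold change of 24 of 34 genes kept its sign throughout, and 10 changed sign somewhere. Ryr1 was −0.10 with the block without replicate 2. Ryr3 was −0.11 with the block, −0.12 with the offset, −0.26 with both and −0.35 with the block without replicate 2. In the same order Stim2 was −0.038, −0.092, −0.11 and −0.13, and −0.048 with no filter. Clcn1 was −0.33 with the block, −0.35 with both and −0.46 without replicate 2. The difference between EPS and control in the log2 ratio of Stim1 to Stim2 was −0.0062 with a prior count of 2 and −0.16 from FPKM. Leaving out 1 library in turn gave ranges across 0 of −0.52 to 0.072 for Cacna2d1 (above 0 without control replicate 2), −0.32 to 0.34 for Ryr3 and −0.38 to 0.53 for Clcn1 (both below 0 without EPS replicate 2), −0.54 to 0.019 for Casq2 (above 0 without control replicate 2), −0.027 to 0.11 for Fkbp1a, −0.14 to 0.037 for Stim1, −0.13 to 0.073 for Stim2, −0.20 to 0.050 for Kcnn3 and −0.27 to 0.089 for Atp1b1.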

Other observations

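Among the further membrane channels and pumps, 7 of 28 tested genes were called lower and 3 higher with the replicate block, where the background was 4.78% lower and 7.31% higher. The 3 higher are Kcnk2, Panx1 and Atp1b4, and among the 7 lower are Scn7a and 3 genes named after their values were seen. Kcnj12, an inward rectifier like Kcnj2, averaged 17.7 CPM in control and 10.2 CPM in EPS with a log2 fold change of −0.76 (adjusted p = 0.0199) in edgeR with the block. Scn3b, a sodium channel beta subunit, averaged 5.05 CPM in control and 2.46 CPM in EPS, at −1.23 (adjusted p = 0.0149) in the same fit. Ano5, the anoctamin linked to muscular dystrophy, averaged 152 CPM in control and 92.8 CPM in EPS, at −0.69 (adjusted p = 0.00570). Without the block these 3 had adjusted p from 0.0921 to 0.221 in edgeR.

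GC content of the longest transcript went with the level of the 34 genes differently among the libraries of a group. Over these 34 genes, which share each library, Pearson's r was taken between GC percent and the log2 deviation from a control mean. It was 0.20, −0.48, 0.39 and 0.72 in control replicates 1 to 4, with deviations from the mean of all 4 control libraries. In EPS replicates 1 to 4 it was −0.37, −0.21, −0.02 and 0.03, with deviations from the mean of the control libraries without replicate 2. Over 13947 tested genes with a GC value it was 0.21, −0.27, 0.25 and 0.24 in control and −0.12, −0.23, −0.0028 and −0.05 in EPS. The control and EPS values are thus on different references, and the EPS values also hold the difference between the groups. Among the control libraries, replicate 4 had the highest r over the 34 genes and replicate 2 the lowest. The part of GC content in the differences between groups was not tested beyond the length and GC offset.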
